A study of Mus musculus with 15 samples.

Results

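Fatty acids are burned in a fixed order of steps, and 39 genes of that route were followed here across erythroid progenitors, the precursors of red cells, taken from mouse fetal liver at E12.5. The 39 were picked by gene name from the 55487 genes listed in the count tables, and all 39 were found. They were assigned to arms: 6 genes of fatty acid activation, 6 of the carnitine shuttle, 20 of mitochondrial β-oxidation, 6 of peroxisomal β-oxidation and 1 regulator, Ppargc1a. Where each product lies in these cells was not examined. All libraries came from strain 129S6/SvEvTac. Group 1 of mice gave 3 wildtype and 3 Rpl5 mutant libraries, whose molecule is labelled polyA RNA. Group 2 gave 3 wildtype, 3 mutant and 3 low-yield mutant libraries, labelled total RNA. In group 2 the sample sheet gives the genotype of all 6 mutant libraries as Rpl5plusSkax23Jus. For group 1 the labels name only Rpl5 and the word mutant, and "low-yield" is not defined. The labels do not say whether replicates came from separate embryos or litters, so p-values measure only the spread between these libraries. The kind of RNA differed between the groups of mice, so no level of one group is set against the other.

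A fatty acid must be joined to coenzyme A by an acyl-CoA synthetase before it can be used, whether it is burned or built into lipids. Long acyl chains then cross into mitochondria as carnitine esters, made by CPT1 on the outer membrane and reversed by CPT2 on the inner one, and the CPT1 step is the classical control point of the pathway. Inside, each turn of β-oxidation consists of a dehydrogenation, a hydration, a second dehydrogenation and a thiolytic cleavage, while peroxisomes shorten chains that are too long or too branched for mitochondria. Red cell precursors carry mitochondria that are lost as they mature.

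Libraries of group 1 held 48510828 to 58513669 counts and those of group 2 24954324 to 44827821, and the 39 genes took 0.168% to 0.210% of them. Rpl5, the mutated gene for a large-subunit ribosomal protein, was lower in every mutant library than in every wildtype library of its group. It held 656 to 744 CPM (depth-normalised counts after TMM scaling) in wildtype and 520 to 570 CPM in mutants of group 1, and 303 to 374 against 232 to 248 and, in low-yield mutants, 219 to 278 CPM in group 2 (log2 fold change -0.32, -0.46 and -0.44 in the group 1 mutant, group 2 mutant and low-yield mutant). Erythroid markers were present and none of the 9 found was at 0. They moved with genotype: their summed level was 3429 to 3690 CPM in group 1 wildtype and 2482 to 2721 CPM in group 1 mutants. In group 2 it was 3759 to 4801 CPM in wildtype, 3072 to 3354 CPM in mutants and 2851 to 3335 CPM in low-yield mutants. In the 3 comparisons with wildtype 7, 2 and 4 of the 9 were called lower, beside 6.78%, 2.95% and 5.86% of all genes. The 7 early progenitor markers summed to 487 to 629 CPM in wildtype and 547 to 666 in mutant libraries of group 1, and to 433 to 584, 581 to 680 and 597 to 724 CPM in the 3 classes of group 2. The 7 granulocyte markers summed to 16.8 to 35.6 CPM in wildtype, 140 to 224 CPM in mutants and 164 to 380 CPM in low-yield mutants of group 2, and to 70.6 to 533 and 227 to 1097 CPM in wildtype and mutant libraries of group 1. The 13 hepatocyte markers, of cells that oxidise fatty acids strongly, summed to 36.9 to 67.9 CPM in wildtype and 9.38 to 25.6 in mutant libraries of group 1, and to 12.6 to 89.4, 12.1 to 55.1 and 51.1 to 57.0 CPM in group 2. Megakaryocyte markers (6) summed to 13.9 to 25.5 and 19.6 to 37.2 CPM in wildtype and mutants of group 1 and to 11.2 to 14.1, 19.4 to 20.5 and 29.8 to 38.6 CPM in group 2, and endothelial markers (6) to no more than 9.67 CPM in group 1 and 1.90, 5.87 and 10.01 CPM in the 3 classes of group 2. The 8 macrophage markers summed to at most 5.36 CPM, with Cd5l at 0 in all libraries of all 5 groups and C1qc in those of 4. Other markers at 0 throughout a group were C1qa, Mecom, Ppbp and Stab2. In the same 3 comparisons 1 of 6, 2 of 6 and 2 of 6 tested early progenitor markers were called higher. For granulocyte markers this was 0 of 7, 4 of 6 and 6 of 6, for megakaryocyte 0 of 6, 1 of 5 and 3 of 5. For endothelial markers it was 0 of 3, 1 of 4 and 3 of 4, beside 5.79%, 3.32% and 6.68% of all genes. Of 13 hepatocyte markers 2, 0 and 0 were called lower, and no macrophage marker was called. The part of these shifts in the results below was not tested, and in bulk RNA fewer cells of a type and less RNA per cell cannot be told apart.

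In wildtype progenitors the route was expressed from end to end, but very unevenly. Levels are compared between genes per length, as CPM per kilobase of annotated exon. In group 1 wildtype libraries the highest were Etfb (71.4 ± 0.48, SD, n = 3), the beta subunit of the flavoprotein that takes electrons from the acyl-CoA dehydrogenases, and Acsl5 (71.0 ± 0.94), a long-chain acyl-CoA synthetase. These neighbours in the order overlapped in their ranges. Of the annotated exon bases of Etfb, 53.01% are shared with Gm45233 on the same strand, so the level of Etfb is uncertain. Etfa, the partner of Etfb, followed at 58.0, then the mitochondrial thiolase Acaa2 at 42.0 and the very-long-chain dehydrogenase Acadvl at 30.7. In group 2 wildtype libraries Acsl5 (58.2 ± 2.07) and Etfb (54.9 ± 8.58) again led, followed by Acaa2 at 35.9, the short-chain dehydrogenase Acads at 33.7 and Acadvl at 27.7.

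The lower end was also alike in both wildtype sets. Within the CPT1 family Cpt1a, the liver form, made up 81.8% to 90.8% of the summed level per length in group 1 wildtype libraries and 90.3% to 93.7% in those of group 2. The muscle form Cpt1b and the brain form Cpt1c stood at 0.50 and 0.23 CPM per kilobase in group 1. For Cpt1b, 81.4% of its annotated exon bases are shared with Gm44502 on the same strand, so its own level is uncertain. Slc27a2, a very-long-chain acyl-CoA synthetase, stood at 0.11 in group 1. Ppargc1a, the transcriptional coactivator known for switching on oxidative genes, had 8 counts in all over the 3 wildtype libraries of group 1, 0 over the 3 mutants, and 8, 3 and 5 over the 3 classes of group 2; it was too low to be tested. With the longest annotated transcript as the length, Etfb and Acsl5 were still first and second in group 1 and the 4 lowest genes were the same.

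**Figure D1:**
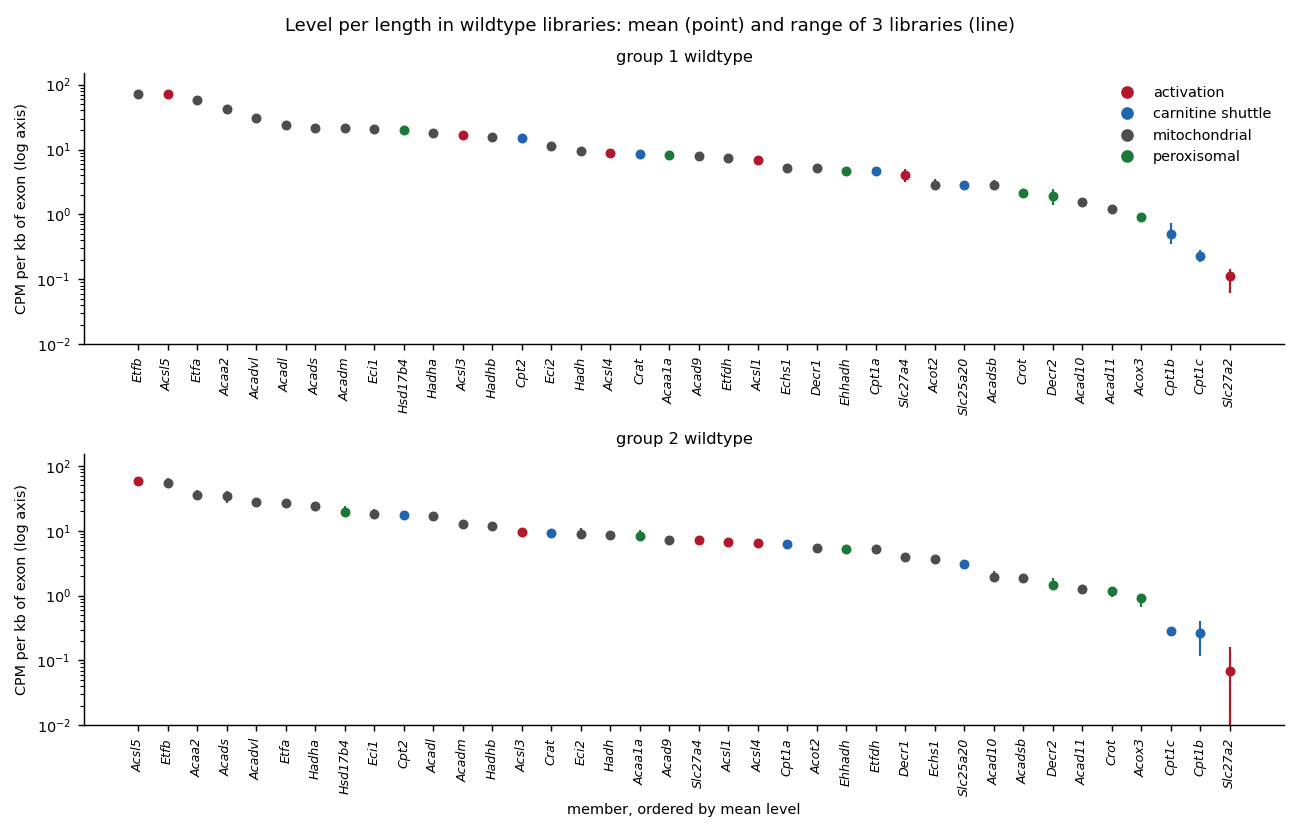
Mean level per length (CPM per kilobase of exon, logarithmic axis) of 38 members in the wildtype libraries of group 1 (top) and group 2 (bottom), ordered by level and coloured by step of the pathway, with lines spanning the 3 libraries. Etfb and Acsl5 lead in both panels and Cpt1b, Cpt1c and Slc27a2 close both. Ppargc1a is left out, and the line of Slc27a2 in group 2 reaches 0, below the axis.

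Mutant and wildtype were then compared within each group of mice and over both, where a gene is called when its adjusted p is under 0.05 in edgeR's quasi-likelihood test with Benjamini-Hochberg adjustment over all genes tested. In group 1, 11 of 38 tested members were called, against 12.6% of all genes tested: 5 were higher in mutants (5.79% of all genes) and 6 lower (6.78%), and 18 had an unadjusted p under 0.05 (27.4%). In the group 2 mutant 5 of 37 were called, against 6.27%: 2 higher (3.32%) and 3 lower (2.95%), with 11 at an unadjusted p under 0.05 (20.4%). In the low-yield mutant 7 of 37 were called, against 12.5%: 3 higher (6.68%) and 4 lower (5.86%), with 10 at an unadjusted p under 0.05 (26.5%). With both groups of mice in 1 fit, 14 of 38 were called, against 19.6%: 7 higher (9.8%) and 7 lower (9.8%), with 21 at an unadjusted p under 0.05 (31.7%). The median log2 fold change of the members was 0.05, 0.01, -0.04 and 0.04 in these 4 comparisons, beside 0.01, -0.01, -0.00 and -0.00 over all genes tested. Counts by arm follow, and no difference between arms was tested. Mutant and wildtype libraries did not overlap for 20 members in group 1, against 31.6% of all genes, 10 of them higher (15%) and 10 lower (16.6%). They did not overlap for 11 in the group 2 mutant, against 23.2%, 5 higher (11.5%) and 6 lower (11.8%), and for 11 in the low-yield mutant, against 29.9%, 4 higher (15.3%) and 7 lower (14.6%). The counts of calls moved when single libraries were left out, as did those over all genes (from 1766 to between 753 and 1729 in group 1, and over a range of 425 to 1323 in the group 2 mutant and 900 to 2395 in the low-yield mutant, from 942 and 1884). In group 1, 4 members were called without mutant replicate 3. Leaving out wildtype replicate 2 gave 6, and leaving out wildtype replicate 1 or 3 gave 7. In the group 2 mutant they were 1 without mutant replicate 3 or wildtype replicate 2 or 3 and 2 without mutant replicate 1 or 2 or low-yield replicate 1, and in the low-yield mutant 2 without low-yield replicate 2 and 4 without low-yield replicate 1.

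**Figure D2:**
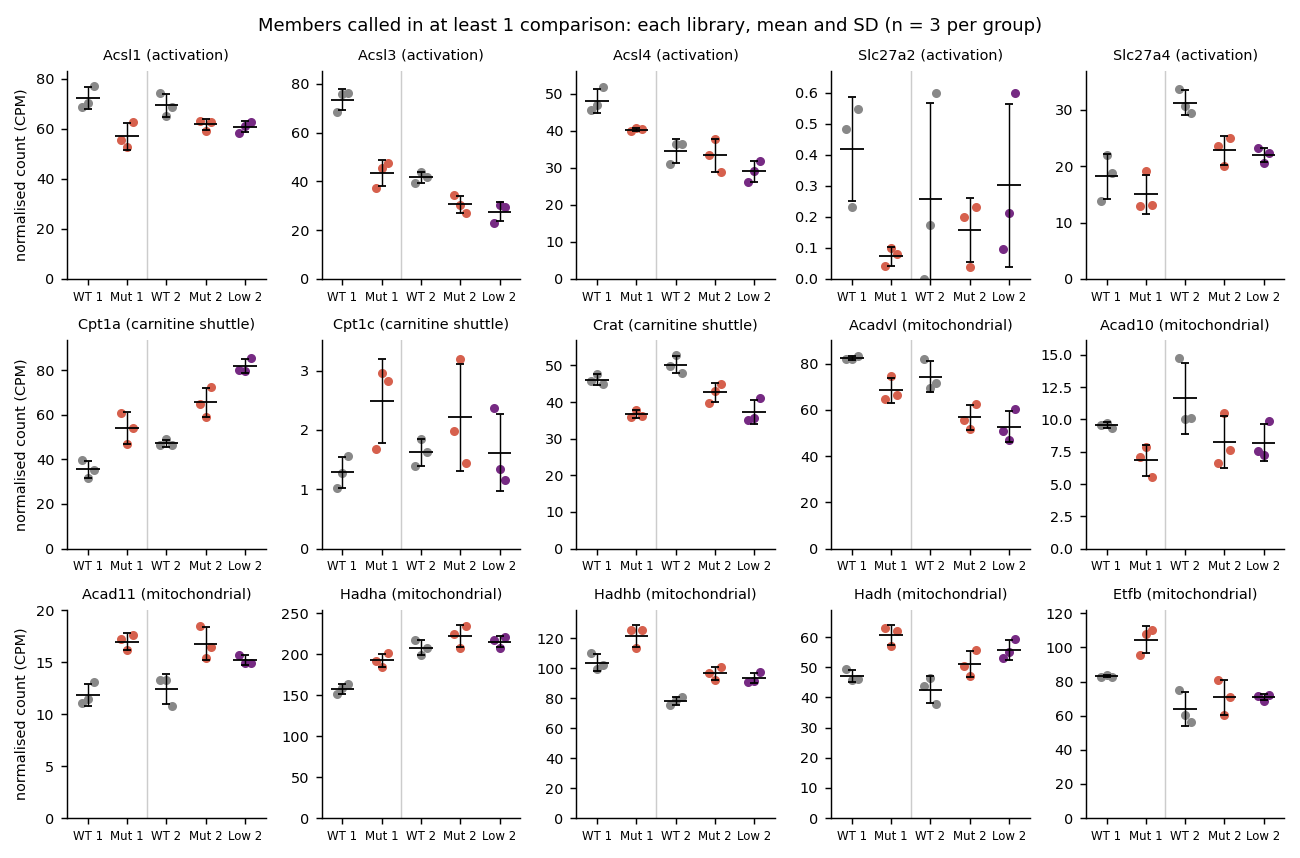
Normalised count (CPM, linear axes from 0) of each member called in at least 1 comparison, in each library of group 1 (WT 1, Mut 1) and group 2 (WT 2, Mut 2, Low 2), with the mean and SD of 3 libraries. For Cpt1a every mutant and low-yield mutant library lies above every wildtype library of its group, and for Acsl3 every one lies below.

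In activation all tested genes lay below wildtype in the mutants, 6 of 6 in group 1, 5 of 5 in either mutant class of group 2 and 6 of 6 over both groups, and 4, 2, 2 and 4 of them were called, beside 12.6%, 6.27%, 12.5% and 19.6% of all genes. This direction of the 5 genes tested throughout was the same with other size factors, with DESeq2 and with voom. Without mutant replicate 3, Acsl4 had a log2 fold change of 0.04 in the group 2 mutant. Median log2 fold changes of the arm were -0.31, -0.17 and -0.25 in the group 1 mutant, group 2 mutant and low-yield mutant.

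Acsl3 encodes a long-chain acyl-CoA synthetase of the endoplasmic reticulum and lipid droplets. In group 1 its level was 68.6, 75.8 and 76.3 CPM in the wildtype libraries and 37.4, 45.6 and 47.5 CPM in the mutants. In group 2 it was 39.5, 44.0 and 41.7 CPM in wildtype, 34.3, 30.4 and 27.2 in mutant libraries, then 23.1, 30.3 and 29.4 in low-yield ones. No mutant library of either class reached a wildtype library of its group. The mutants stood at 0.591, 0.733 and 0.662 times the wildtype level (log2 fold change -0.76, SE 0.09, adjusted p 5.21e-04; -0.45, SE 0.12, adjusted p 0.0384; -0.60, SE 0.12, adjusted p 0.00472; edgeR). Over both groups the log2 fold change was -0.62 (SE 0.08, adjusted p 1.52e-05). Leaving out 1 library ended the call in the group 2 mutant in 4 of 9 fits (adjusted p 0.0839 to 0.187) and ended no other Acsl3 call. In GRCm38 Acsl3 spans bases 78657825 to 78707743 of chromosome 1 (forward strand). It shares 244 exon bases (5.60% of its own) with Utp14b on the same strand. The log2 fold changes of Utp14b were 0.01, -0.23 and -0.44 (adjusted p 0.961, 0.380 and 0.0501, edgeR), the last 2 with the sign of Acsl3. The part of the shared bases in the Acsl3 values was not tested. The 250 bases before its RefSeq start, none in an annotated exon, are shown because of its decrease, with the CCAAT box in capitals (chr1:78657575-78657824, GRCm38.p6, forward strand):
Acsl3: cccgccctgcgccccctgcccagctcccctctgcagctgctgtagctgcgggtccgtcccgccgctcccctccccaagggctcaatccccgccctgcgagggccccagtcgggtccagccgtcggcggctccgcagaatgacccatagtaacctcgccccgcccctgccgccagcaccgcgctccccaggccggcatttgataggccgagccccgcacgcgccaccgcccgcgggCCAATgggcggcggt
The stretch is 75.6% G and C and holds 28 CpG dinucleotides.

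Acsl5, the most abundant of the synthetases, was never called. Its level was 341, 350 and 345 CPM in wildtype and 309, 340 and 329 CPM in mutant libraries of group 1, and lay between 258 and 291 CPM in the 9 libraries of group 2. Its log2 fold changes ran from -0.08 to -0.04 with adjusted p from 0.402 to 0.810 in edgeR. The ratio of Acsl3 to Acsl5 per length within a library restates these levels and was lower in mutants. It was 0.225 to 0.247 in wildtype against 0.135 to 0.161 in mutant libraries of group 1. In group 2 it was 0.154 to 0.181 in wildtype, 0.1096 to 0.135 in mutant and 0.0998 to 0.130 in low-yield mutant libraries. Of the summed level per length of Acsl1, Acsl3, Acsl4 and Acsl5, Acsl5 took 67.3% to 69.5% in group 1 wildtype and 73.5% to 75.2% in group 1 mutant libraries.

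Acsl1, a long-chain synthetase of the outer mitochondrial membrane and endoplasmic reticulum, was lower by a smaller margin. Group 1 libraries held 68.9, 70.4 and 77.2 CPM in wildtype and 55.4, 52.6 and 62.8 CPM in mutants. Group 2 libraries held 74.2, 65.1 and 68.8 CPM in wildtype, 63.3, 59.2 and 62.8 in mutant libraries, then 58.5, 61.0 and 62.9 in low-yield ones. The groups did not overlap in any of the 3 comparisons. It was called in group 1 (log2 fold change -0.34, SE 0.08, adjusted p 0.0193) and over both groups (-0.26, SE 0.06, adjusted p 0.00657), and its values of -0.17 and -0.19 in group 2 did not pass (adjusted p 0.285 and 0.161, edgeR). Without wildtype replicate 2 or 3 the adjusted p in group 1 was 0.0563 or 0.0682. Acsl4, which prefers arachidonic acid, was called in group 1: 45.5, 47.0 and 51.8 CPM in wildtype and 39.8, 40.6 and 40.5 CPM in mutants (-0.26, SE 0.08, adjusted p 0.0490). That call was lost whichever of the 6 libraries was left out (adjusted p 0.0706 to 0.147), and with RLE size factors or no low-count filter (largest 0.0687). In group 2 its values were -0.06 and -0.25 (adjusted p 0.853 and 0.204), and the difference between the groups of mice did not pass either (interaction 0.21, SE 0.14, adjusted p 1). Over both groups Acsl4 had -0.16 (adjusted p 0.133). It was called there with voom and without group 2 wildtype replicate 1 or mutant replicate 2, and voom called it in low-yield mutants.

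The transporters with synthetase activity differed in their depth. Slc27a4, which takes up and activates long and very long chains, held 33.7, 30.7 and 29.4 CPM in wildtype, 23.6, 19.999 and 25.02 in mutant libraries, then 23.1, 20.6 and 22.3 CPM in low-yield ones of group 2, without overlap. It was called in the mutant (log2 fold change -0.45, SE 0.11, adjusted p 0.0301) and the low-yield mutant (-0.50, SE 0.11, adjusted p 0.00879, edgeR). In group 1 it held 13.9, 21.9 and 18.7 CPM in wildtype and 12.9, 19.1 and 13.0 CPM in mutants and was not called (-0.28, adjusted p 0.427), and over both groups it was (-0.36, SE 0.11, adjusted p 0.0276). The call was lost in 7 of 9 fits without 1 library for the group 2 mutant (adjusted p 0.0510 to 0.0922), with only the 6 libraries compared (0.0580), and in 9 of 12 over both groups (0.0514 to 0.0861). In the low-yield mutant it was lost without low-yield replicate 2 (0.0594). Slc27a2 held 0.483, 0.231 and 0.548 CPM in wildtype and 0.0405, 0.101 and 0.0791 CPM in mutant libraries of group 1, that is, 69 and 11 counts in all. Its log2 fold change of -2.49 (SE 0.73, adjusted p 0.0373) rests on these few reads and was lost in 5 of 6 fits without 1 library (0.0764 to 0.156), with voom, in edgeR's legacy quasi-likelihood mode and without the low-count filter (largest 0.117). DESeq2 gave it no adjusted p, here or over both groups, and a mean CPM minimum of 5 left it out. It was not tested in group 2 because of its low counts there, where 1 wildtype library was at 0. Over both groups its call (-1.73, SE 0.60, adjusted p 0.0444) was lost in 8 of 12 such fits (0.0541 to 0.142), and in the same 3 alternatives and with the replicate block (largest 0.248).

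In the carnitine shuttle the 6 genes went different ways, with Cpt1a higher in every mutant class. Of the 6, 1 rose and 1 fell in group 1 (12.6% of all genes called), 1 rose in the group 2 mutant (6.27%), 1 rose and 1 fell in the low-yield mutant (12.5%), and 2 rose and 1 fell over both groups (19.6%). Cpt1a encodes the outer-membrane carnitine palmitoyltransferase, the entry step for long chains. Group 1 libraries held 39.6, 31.7 and 35.1 CPM in wildtype and 60.8, 46.8 and 54.2 CPM in mutants. Group 2 libraries held 46.6, 49.0 and 46.2 CPM in wildtype, 65.0, 59.1 and 72.2 in mutant libraries, then 80.0, 79.7 and 85.4 CPM in low-yield ones. All mutant libraries lay above all wildtype libraries of their group, and all low-yield mutants above all other mutants. The mutants stood at 1.52, 1.39 and 1.73 times wildtype (log2 fold change 0.60, SE 0.11, adjusted p 0.00515; 0.47, SE 0.09, adjusted p 0.00641; 0.79, SE 0.09, adjusted p 1.03e-04; edgeR). Over both groups the value was 0.54 (SE 0.08, adjusted p 7.35e-05). These 4 calls were kept in every fit that left out 1 library and in every alternative, with a largest adjusted p of 0.0496.

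In GRCm38 Cpt1a spans bases 3322334 to 3385733 of chromosome 19 (forward strand) and shares no exon base with another annotated gene. Its RefSeq start lies inside this span, so the bases shown before that start are within the annotated gene, unlike those of Acsl3. Of its 250 bases before the RefSeq start, the 234 outside annotated exons are shown because its 3 calls against wildtype held in every fit without 1 library (chr19:3323051-3323284, GRCm38.p6, forward strand). A CCAAT box begins 19 bases before the start and runs past the end of the stretch shown, so no base of it is capitalised:
Cpt1a: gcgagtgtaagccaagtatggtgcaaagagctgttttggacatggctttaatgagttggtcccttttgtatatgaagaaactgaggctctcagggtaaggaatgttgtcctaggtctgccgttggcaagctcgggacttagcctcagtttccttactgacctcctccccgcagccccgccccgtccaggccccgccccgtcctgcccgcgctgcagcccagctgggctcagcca
It is 58.1% G and C with 10 CpG dinucleotides, fewer than before Acsl3.

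Cpt2, the inner-membrane transferase that releases acyl-CoA in the matrix, was not called. It held 36.6, 36.8 and 35.6 CPM in wildtype and 33.9, 35.1 and 34.4 CPM in mutants of group 1, and its log2 fold changes were -0.07, -0.22 and -0.15 (adjusted p 0.564, 0.190 and 0.312 in edgeR); DESeq2 called it over both groups. The ratio of Cpt1a to Cpt2 per length was 0.270 to 0.339 in wildtype and 0.417 to 0.561 in mutant libraries of group 1. In group 2 it was 0.331 to 0.374 in wildtype, 0.520 to 0.633 in mutant and 0.654 to 0.696 in low-yield mutant libraries, with no overlap between the 3 classes. Slc25a20, the carrier that exchanges acylcarnitine for carnitine across the inner membrane, ranged from 13.1 to 18.5 CPM in group 1 and from 12.7 to 18.0 CPM in group 2. It was not called (0.29, 0.14 and 0.10, adjusted p 0.146, 0.661 and 0.723 in edgeR). Over both groups voom called it, as did edgeR without group 2 wildtype replicate 1.

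Crat, the carnitine acetyltransferase that buffers short acyl groups, fell. Its libraries held 45.8, 47.7 and 44.9 CPM in wildtype and 35.8, 37.8 and 36.3 CPM in mutants of group 1, and 49.9, 52.7 and 48.0, then 39.8, 43.0 and 45.1, then 35.01, 35.8 and 41.2 CPM in wildtype, mutant and low-yield mutant libraries of group 2. No mutant library reached a wildtype library of its group. It was called in group 1 (log2 fold change -0.33, SE 0.07, adjusted p 0.0123), in the low-yield mutant (-0.43, SE 0.10, adjusted p 0.00932) and over both groups (-0.28, SE 0.06, adjusted p 0.00173), but not in the group 2 mutant (-0.23, adjusted p 0.176, edgeR). In group 1 the adjusted p was 0.0520, 0.0706 and 0.0606 without wildtype replicate 1, wildtype replicate 2 and mutant replicate 3, and in the low-yield mutant 0.0678 and 0.0589 without low-yield replicates 1 and 2. Cpt1c, the brain form, held 1.02, 1.27 and 1.56 CPM in wildtype and 1.68, 2.96 and 2.83 CPM in mutants of group 1, and 1.39, 1.85 and 1.63, then 1.98, 3.204 and 1.45, then 2.37, 1.34 and 1.15 CPM in the 3 classes of group 2, which overlapped. It was called over both groups (0.70, SE 0.24, adjusted p 0.0436), while its values in group 2 were 0.38 and -0.05 (adjusted p 0.637 and 0.959). The call was lost in 9 of 12 fits without 1 library (0.0566 to 0.125), with voom, without the low-count filter and in the legacy mode (largest 0.106). Within group 1 Cpt1c had an adjusted p of 0.0807, and 0.0246 with the replicate number as a block (edgeR). The fit without mutant replicate 1 also called it there.

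Among the 20 genes assigned to the mitochondrial arm, 4 rose and 1 fell in group 1 (12.6% of all genes called). In the group 2 mutant 1 rose and 1 fell (6.27%), in low-yield mutants 2 rose and 1 fell (12.5%), and over both groups 5 rose and 2 fell (19.6%). Over both groups those that rose were Hadha, Hadhb and Hadh, of the later steps of the cycle, the flavoprotein subunit Etfb and Acad11. Those that fell, Acadvl and Acad10, are like Acad11 members of the acyl-CoA dehydrogenase family. In group 1, 15 of the 20 lay above 0, in group 2 14 (mutant) and 13 (low-yield).

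Acadvl catalyses the first dehydrogenation of very long chains at the inner membrane. Its level was 82.1, 81.8 and 83.1 CPM in wildtype and 64.6, 74.6 and 66.3 CPM in mutant libraries of group 1. In group 2 it was 82.1, 69.5 and 71.4 CPM in wildtype, 55.7, 51.9 and 62.5 in mutant libraries, then 51.0, 46.9 and 60.1 in low-yield ones. Mutant and wildtype did not overlap in any of the 3 comparisons. The log2 fold changes were -0.27 (SE 0.07, adjusted p 0.0312), -0.39 (SE 0.11, adjusted p 0.0479), -0.49 (SE 0.11, adjusted p 0.00798) and, over both groups, -0.32 (SE 0.06, adjusted p 0.00102, edgeR). Leaving out 1 library ended the call in 5 of 6 fits in group 1 (adjusted p 0.0851 to 0.133), in 8 of 9 in the group 2 mutant (0.0530 to 0.164) and, in the low-yield mutant, without low-yield replicate 1 (0.0502) or 2 (0.0617), but in none of the 12 over both groups. In the group 2 mutant it was also lost with voom, without the low-count filter and with only the 6 libraries compared (largest 0.0612). Acadvl, on chromosome 11, shares 42.9% of its exon bases with Dvl2 on the opposite strand, whose own log2 fold changes had the other sign and were not called (0.12, 0.12 and 0.18, adjusted p 0.403, 0.569 and 0.264).

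The other long- and medium-chain dehydrogenases stayed uncalled. Acadl and Acadm, for long and medium chains, had log2 fold changes from -0.03 to 0.08 in the 3 comparisons with wildtype. Acads, for short chains, gave 0.19, -0.11 and -0.14 (adjusted p 0.108, 0.698 and 0.556). Acad10 and Acad11 are less studied members of the family. Acad11 held 11.1, 11.5 and 13.1 CPM in wildtype and 17.2, 16.1 and 17.6 CPM in mutants of group 1, and 13.3, 13.3 and 10.8, then 18.5, 15.4 and 16.5, then 15.7, 14.98 and 14.9 CPM in the 3 classes of group 2. Mutant libraries were above wildtype ones throughout. It was called in group 1 (0.52, SE 0.12, adjusted p 0.0133) and over both groups (0.48, SE 0.09, adjusted p 5.32e-04), with 0.44 and 0.29 in group 2 (adjusted p 0.0660 and 0.175, edgeR). DESeq2, voom, a mean CPM minimum of 5 and the fit without wildtype replicate 1 called it in the group 2 mutant. In group 1 the adjusted p was 0.0517, 0.0651 and 0.0660 without wildtype replicate 1, wildtype replicate 2 and mutant replicate 3. Acad10 was called over both groups (-0.49, SE 0.13, adjusted p 0.0119), with 9.61, 9.77 and 9.34 CPM in wildtype and 7.09, 7.88 and 5.51 CPM in mutants of group 1 and 14.8, 10.03 and 10.1 against 6.62, 10.5 and 7.64 CPM in wildtype and mutants of group 2, where 1 mutant library lay among the wildtype ones. The low-yield mutants held 7.55, 7.24 and 9.85 CPM. In group 1 the adjusted p of Acad10 was 0.0673, and 0.0240 with the replicate block (edgeR). Voom and the fit without mutant replicate 2 also called it there.

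Hadha and Hadhb encode the alpha and beta subunits of the mitochondrial trifunctional protein, which carries out the last 3 steps of the cycle on long chains. Hadha held 151, 159 and 164 CPM in wildtype and 192, 185 and 201 CPM in mutants of group 1. Hadhb held 110, 99.4 and 102 against 126, 113 and 126 CPM. In group 1 both subunits were higher in all mutant libraries than in all wildtype ones.

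In group 2 Hadha held 218, 200 and 208 CPM in wildtype, 225, 208 and 234 in mutant libraries, then 218, 208 and 221 CPM in low-yield ones, which overlapped. Hadhb held 75.5, 79.0 and 80.7 CPM in wildtype, 97.0, 92.4 and 101 in mutant libraries, then 91.2, 91.7 and 97.4 CPM in low-yield ones, which did not overlap with wildtype. Hadha was called in group 1 (log2 fold change 0.29, SE 0.06, adjusted p 0.0107) and over both groups (0.19, SE 0.05, adjusted p 0.0140), and its 0.10 and 0.05 in group 2 did not pass (adjusted p 0.531 and 0.734, edgeR). Hadhb was called in the group 2 mutant (0.30, SE 0.08, adjusted p 0.0296), the low-yield mutant (0.25, SE 0.08, adjusted p 0.0435) and over both groups (0.27, SE 0.06, adjusted p 0.00219), and in group 1 it had 0.23 (SE 0.07, adjusted p 0.0501), or 0.0200 with the replicate block. DESeq2, voom, a mean CPM minimum of 5 and the legacy mode also called Hadhb in group 1, as did the fits without wildtype replicate 1 or mutant replicate 2.

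The genotype by mouse-group interaction did not pass for either subunit (-0.17, SE 0.10 for Hadha and 0.09, SE 0.11 for Hadhb, adjusted p 1 for both), so a difference between the groups of mice was not shown. Hadha lost its call without mutant replicate 3 in group 1 (0.0639) and, over both groups, without group 1 wildtype replicate 1 (0.0644), wildtype replicate 2 (0.0543) or mutant replicate 3 (0.0521). Hadhb lost its call in 5 of 9 fits in the group 2 mutant (0.0561 to 0.148), in 8 of 9 in the low-yield mutant (0.0589 to 0.126) and in none of 12 over both groups. In both classes of group 2 the Hadhb call was also lost without the low-count filter and with only the 6 libraries compared (largest 0.0577 and 0.0889). The ratio of Hadha to Hadhb per length was 1.91 to 2.18 in wildtype, 1.702 to 1.76 in mutant and 1.71 to 1.80 in low-yield mutant libraries of group 2. In group 1 it was 1.04 to 1.21 in wildtype and 1.16 to 1.23 in mutants, which overlapped.

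The genes of both subunits lie head to head on chromosome 5 of GRCm38, Hadha at 30118304 to 30155162 on the reverse strand and Hadhb at 30155248 to 30184593 on the forward strand. The 85 bases between them are shown because the 2 genes share this stretch and both were called higher over both groups (chr5:30155163-30155247, GRCm38.p6, forward strand, that of Hadhb). None of the motifs searched was found in it, so no base is capitalised:
Hadha-Hadhb: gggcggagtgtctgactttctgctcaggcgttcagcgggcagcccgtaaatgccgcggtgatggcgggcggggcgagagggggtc
It is 69.4% G and C with 9 CpG dinucleotides.

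Hadh, the dehydrogenase for the third step on medium and short chains, held 49.3, 45.8 and 46.2 CPM in wildtype and 63.0, 57.0 and 61.9 CPM in mutants of group 1, and 43.7, 46.4 and 37.7, then 50.4, 47.1 and 55.7, then 52.98, 55.0 and 59.3 CPM in the 3 classes of group 2. Mutant libraries of both classes lay above wildtype. It was called in group 1 (0.37, SE 0.07, adjusted p 0.00746), the low-yield mutant (0.39, SE 0.10, adjusted p 0.0202) and over both groups (0.32, SE 0.07, adjusted p 0.00215), and had 0.27 in the group 2 mutant (adjusted p 0.147, edgeR). In the low-yield mutant the adjusted p was 0.0926 without wildtype replicate 3 and 0.0613 and 0.0664 without low-yield replicates 2 and 3. In group 1 and over both groups no left-out library ended the call.

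Etfb, the beta subunit of the flavoprotein, held 82.8, 83.8 and 82.8 CPM in wildtype and 95.3, 108 and 110 CPM in mutants of group 1. It was called there (0.33, SE 0.07, adjusted p 0.0102) and over both groups (0.24, SE 0.08, adjusted p 0.0301). In group 2 its libraries overlapped, with 75.2, 60.6 and 56.0 CPM in wildtype, 80.7, 60.5 and 71.1 in mutant libraries, then 71.7, 68.9 and 71.9 CPM in low-yield ones (0.15 and 0.15, adjusted p 0.535 and 0.462, edgeR). Without mutant replicate 3 the adjusted p in group 1 was 0.0569, and over both groups the call was lost in 9 of 12 fits without 1 library (0.0581 to 0.0978). Its annotated exon bases are shared to 53.01% with Gm45233 on the same strand. Etfa, with which it forms a dimer, did not follow: 105, 111 and 103 CPM in wildtype and 103, 105 and 109 CPM in mutants of group 1 (-0.01, adjusted p 0.935). The ratio of Etfa to Etfb per length was 0.792 to 0.837 in wildtype and 0.620 to 0.685 in mutant libraries of group 1, whereas in group 2 the 3 classes overlapped between 0.374 and 0.574.

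**Figure D3:**
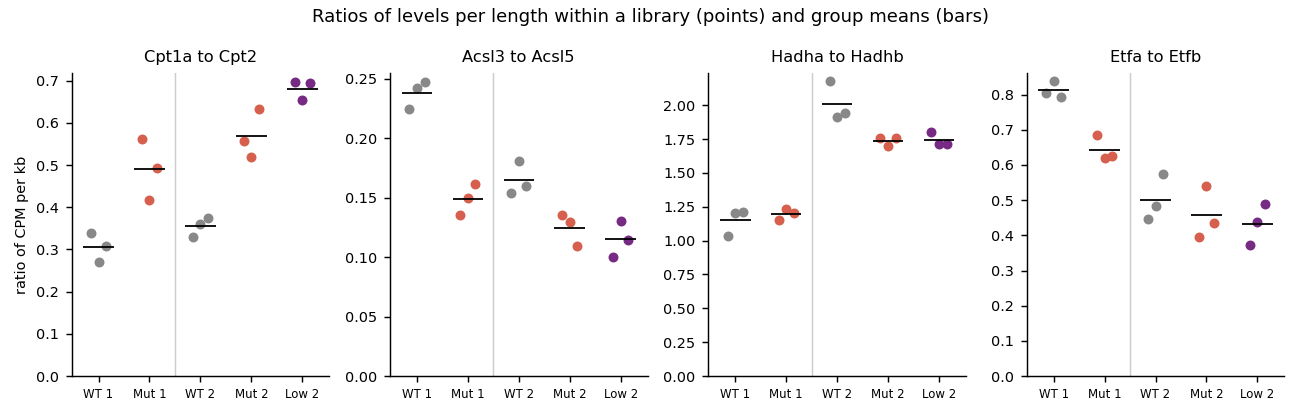
Ratio of levels per length (CPM per kilobase) of 4 gene pairs in each library of group 1 (WT 1, Mut 1) and group 2 (WT 2, Mut 2, Low 2); bars are means of 3 libraries and axes start at 0. The ratio of Cpt1a to Cpt2 is higher and that of Acsl3 to Acsl5 lower in every mutant library than in every wildtype library of its group. The ratios restate the levels of the genes in each pair.

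The remaining 13 mitochondrial genes were not called in these fits. With the replicate block, Acaa2 and Acot2 were called over both groups (adjusted p 0.0285 and 0.0340, against 0.0884 and 0.0572 without), and both were called there with a mean CPM minimum of 5, Acaa2 also with voom and Acot2 with DESeq2. Both were called without group 2 wildtype replicate 1, and Acot2 without group 1 wildtype replicate 2 or mutant replicate 3 and, in the group 2 mutant, with voom. Their log2 fold changes against wildtype ran from -0.14 to 0.35 over the 3 comparisons, with adjusted p from 0.108 to 0.997 in edgeR. They include Etfdh, which passes electrons to ubiquinone (0.01, 0.10 and 0.03), Acaa2 (0.17, 0.18 and 0.18), the hydratase Echs1 (0.17, 0.13 and 0.14) and Decr1, needed for unsaturated chains (-0.00, -0.06 and -0.12). Acot2, a mitochondrial thioesterase, had 0.31, 0.35 and 0.07 (adjusted p 0.341, 0.139 and 0.798).

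In the peroxisomal arm 0 of 6 genes were called in edgeR with all libraries, beside 12.6%, 6.27%, 12.5% and 19.6% of all genes in the 4 comparisons with wildtype; nothing particular to the arm is read from this. Of the 6, 1, Ehhadh, had an unadjusted p under 0.05 (0.0161 in group 1 and 0.0179 over both groups). DESeq2 called it over both groups, as did edgeR without group 2 wildtype replicate 2. The log2 fold changes against wildtype lay between -0.32 and 0.27. Of the 6, the highest per length in both wildtype sets was Hsd17b4, the multifunctional protein for straight and branched chains, which held 66.0, 66.0 and 72.4 CPM in wildtype and 70.4, 66.4 and 76.3 CPM in mutants of group 1 (0.06, SE 0.07, adjusted p 0.655). Its wildtype and mutant libraries overlapped. The member with the smallest adjusted p was Ehhadh, another bifunctional enzyme, with 14.2, 13.9 and 13.9 CPM in wildtype and 11.7, 10.4 and 11.4 CPM in mutants of group 1 (-0.32, SE 0.12, adjusted p 0.0912); its values in group 2 were -0.14 and -0.25 (adjusted p 0.678 and 0.345). Crot, which makes carnitine esters of shortened chains for export to mitochondria, gave 0.02, 0.19 and 0.11, and the peroxisomal thiolase Acaa1a gave 0.05, 0.01 and -0.05 (adjusted p 0.719, 0.983 and 0.849).

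**Figure D4:**
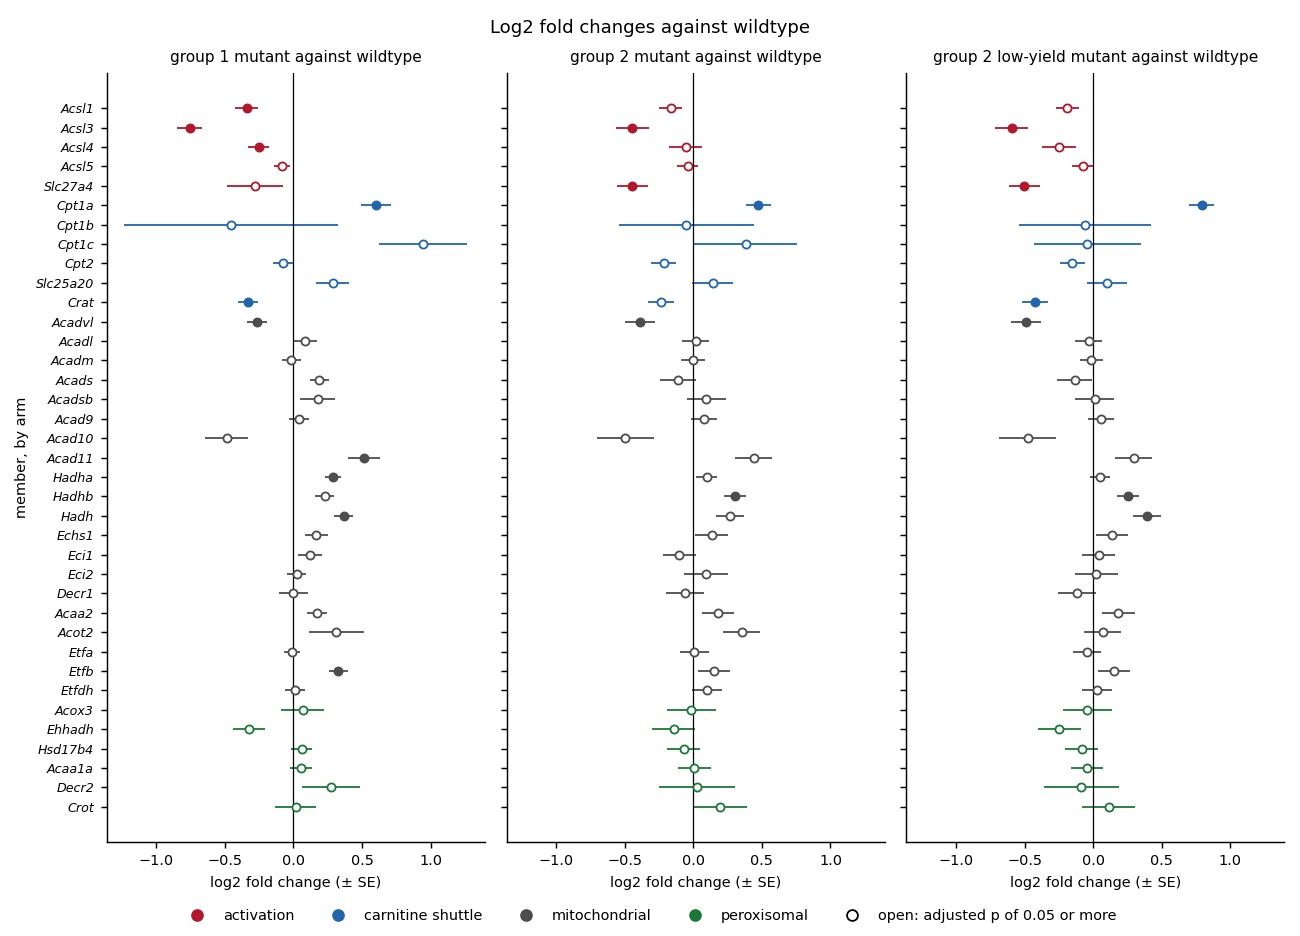
Log2 fold change (± SE) of 37 members against wildtype in the group 1 mutant, the group 2 mutant and the low-yield mutant, listed by step of the pathway; filled points have an adjusted p under 0.05. The activation genes lie left of 0 in all 3 panels, Cpt1a lies right, and no peroxisomal point is filled. Slc27a2 (-2.49 in group 1) and Ppargc1a are left out.

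Low-yield mutants were also set against the other mutants of group 2. None of the 37 tested members was called, as was the case for all 15024 genes (0% called in edgeR; 480 genes, 3.19%, had an unadjusted p under 0.05, and DESeq2 called 6). DESeq2 and voom also called 0 members. At an unadjusted p under 0.05 there was 1 member, Cpt1a, whose levels are given above (log2 fold change 0.32, SE 0.09, unadjusted p 0.00278, adjusted p 1). Libraries of the 2 classes did not overlap for 2 members, against 8.21% of all genes tested, 1 higher (4.07%) and 1 lower (4.15%).

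Groups 1 and 2 have no library in common. Of the 37 members tested in both, 32 (86.5%) had the same sign in the mutants of group 1 and group 2, against 76.8% of 13370 genes. The members called in both were 3, Acsl3, Cpt1a and Acadvl, beside 651 of the 13370 genes. For the genotype by mouse-group interaction 0 of 38 members were called, against 0.0188% of 15954 genes (342 genes, 2.14%, at an unadjusted p under 0.05), and DESeq2 and voom called 0 members as well. Only Acsl3 had an unadjusted p under 0.05 (interaction 0.33, SE 0.14, unadjusted p 0.0339, adjusted p 1).

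Other genes of the pathway were read from a list of 34, of which 33 were found in the tables and 30 were tested. Over both groups 0 of the 30 rose and 4 fell, with a median log2 fold change of -0.04, beside 19.6% of all genes called. The counts were 0 and 2 in group 1, 0 and 2 in the group 2 mutant, 1 and 3 in low-yield mutants, beside 12.6%, 6.27% and 12.5% of all genes. Acsl6, a long-chain acyl-CoA synthetase of red cell precursors and brain, fell most firmly. It held 13.1, 13.8 and 11.1 CPM in wildtype and 7.70, 6.55 and 4.80 CPM in mutants of group 1, and 17.2, 16.2 and 13.2, then 5.11, 8.73 and 6.17, then 4.83, 4.29 and 7.67 CPM in the 3 classes of group 2. No mutant library reached wildtype. The log2 fold changes were -0.996 (SE 0.18, adjusted p 0.00397), -1.23 (SE 0.22, adjusted p 0.00457), -1.44 (SE 0.22, adjusted p 8.05e-04) and, over both groups, -1.10 (SE 0.14, adjusted p 1.15e-05, edgeR), and no left-out library ended any of these calls.

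Of 18 listed regulators of fatty acid oxidation, 16 were tested over both groups, and 3 rose and 2 fell, beside 19.6% of all genes called. In separate edgeR fits 0 were called in group 1 and 0 in the group 2 mutant (12.6% and 6.27% of all genes), with 6 and 3 at an unadjusted p under 0.05, and 1 rose and 1 fell in low-yield mutants (12.5%). Prkaa2, a catalytic subunit of the energy sensor AMPK, rose by 2.00 on the log2 scale (SE 0.42, adjusted p 0.0017), with 0.137 to 0.269 CPM in wildtype and 0.573 to 0.726 CPM in mutants of group 1 and 0 to 0.506 against 1.04 to 1.39 CPM in group 2. Rxra, the partner receptor of PPARs, fell by 0.26 (SE 0.06, adjusted p 0.00534), with 28.6, 28.1 and 25.7 against 23.4, 23.1 and 21.5 CPM in group 1 and 49.3, 51.8 and 47.9 against 39.6, 43.6 and 42.0 CPM in group 2. Of the lipins, which act in glycerolipid synthesis and as coactivators, Lpin1 rose by 0.47 (SE 0.13, adjusted p 0.0188) and Lpin2 fell by 0.25 (SE 0.07, adjusted p 0.0224, edgeR). Lpin1 lost its call without group 1 wildtype replicate 1 (0.0545) or group 2 mutant replicate 3 (0.0550), and in the low-yield mutant its value was -0.13 (adjusted p 0.665). Lpin2 lost its call in 6 of 12 fits without 1 library (0.0521 to 0.0658).

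As a comparison within the mitochondrion, 22 genes of the respiratory chain, tricarboxylic acid cycle and mitochondrial maintenance were read in the same fits. In group 1, 18 of 22 lay above 0, with a median log2 fold change of 0.12 and 2 called higher, beside a median of 0.14 for the 20 β-oxidation enzymes. In group 2 the medians were 0.02 (mutant) and 0.01 (low-yield), with 1 called higher in either, beside 0.09 and 0.03 for β-oxidation. Over both groups 3 of the 22 were called, all higher, with a median of 0.06, the same as for β-oxidation to 2 decimals. Of all genes 12.6%, 6.27%, 12.5% and 19.6% were called in these 4 comparisons.

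Windows of 250 bases before and 50 after the RefSeq start were available for 33 of the 39 members. They were searched on both strands for the GATA core AGATAA, the estrogen-related receptor element TCAAGGTCA, the PPAR element (AGGTCA, any base, AGGTCA), the p53 half-site and the CCAAT box. CCAAT was present in 15 of the 33 (45.5%), Acsl3 and Cpt1a included, against 37.4% of all 32851 windows. AGATAA was present in 3 (9.09%), those of Acadvl, Crot and Eci2, against 11.2% of all windows. The other 3 motifs were in 0 of the 33 and in 0.423%, 0.0396% and 8.36% of all windows. These matches describe the letters only.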

How the data were processed

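Per the labels' protocols, RNA was extracted with RNeasy Micro columns and sequenced as 151 bp paired reads on a NovaSeq. Per the submitters' processing notes, tools named are cutadapt 2.3, FastQC 0.11.8, STAR 2.7.8a, RSEM 1.3.3 and MultiQC 1.7, with build GRCm38; the annotation release and use of strand are not given in the sources used here. The authors deposited RSEM's expected counts, one value per gene and library, all of them whole. Reporter rows (5 counts in all) were left out.

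Differences were fitted in R 4.3.3 with edgeR 4.0.16: filterByExpr, TMM, robust quasi-likelihood fit, two-sided F test, Benjamini-Hochberg adjustment over all genes tested, threshold 0.05. Fits used 6 libraries (group 1), 9 (group 2, shared wildtype for both mutant classes) or 12 (both groups of mice, with the group as a term, and the interaction). CPM are TMM-scaled. Exon lengths, overlaps and positions are from GENCODE M21, matched by gene ID for 39 of 39 members, and upstream sequences from RefSeq (GRCm38.p6). Scripts were tested on simulated counts. Replicate pairs differed beyond sampling noise (chi-square per degree of freedom 20.1 to 76.5). In group 1 deviations from the group mean correlated at 0.591, 0.254 and 0.258 between same-numbered wildtype and mutant libraries. Between unlike-numbered ones the largest correlation was 0.344. A fit with the number as a block called 2863 genes in place of 1766 and is given where it changes a call.

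The members, the other gene lists and the tests were chosen with earlier results of these data known. Members called in any comparison are given by library, others by range or, for 5 used as a contrast (Acsl5, Cpt2, Etfa, Hsd17b4 and Ehhadh), by library after their values were seen, and up to 6 genes with the smallest adjusted p over both groups from the lists of other pathway genes and regulators. A gene that this rule selects is not reported here. Alternatives were RLE size factors, DESeq2 1.42.0, voom with quality weights (limma 3.58.1), a mean CPM minimum of 5, no low-count filter, the replicate block, summed near-identical copies, only the 6 libraries compared, each library left out in turn, and the longest transcript as length. The legacy quasi-likelihood mode and the ratios within a library were added after seeing the data. The ratios come from the same levels as the genes in them and are no separate evidence.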

Additional observations from a re-analysis of the deposited data

How the results depend on the processing

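The count of members called moved by over 1.5 times in the group 2 mutant with no low-count filter (3 in place of 5) and in a fit on only the 6 libraries compared (2). With 1 library left out the counts ranged from 4 to 11 in group 1, from 1 to 5 in the group 2 mutant, from 2 to 7 in the low-yield mutant and from 10 to 16 over both groups, beside 753 to 1729, 425 to 1323, 900 to 2395 and 2526 to 3629 of all genes; fewer libraries enter these fits. The median log2 fold change of the members ranged from -0.0105 to 0.0856 in the group 2 mutant and from -0.0494 to 0.0550 in the low-yield mutant when 1 library was left out. In all other alternatives the counts stayed within 1.5 times, no member changed sign in a comparison that called it, and 0 members were called in the interaction or between the mutant classes of group 2. The replicate block gave 14 members in group 1 (11 without it, adding Hadhb, Cpt1c and Acad10), 5 (mutant) and 7 (low-yield) in group 2 and 15 over both groups, where it added Acaa2 and Acot2 and lost Slc27a2; all genes called numbered 2863, 1309, 2331 and 3889 with it, against 1766, 942, 1884 and 3128. In group 2 the correlations of same-numbered wildtype and mutant libraries were 0.339, 0.242 and 0.00899, with at most 0.155 between unlike-numbered ones. For the low-yield mutant they were 0.156, -0.125 and 0.0437, with at most 0.157 between unlike-numbered ones. As in group 1, same-numbered libraries were not always the closest. Members called under DESeq2 numbered 11, 6, 7 and 16 in group 1, the mutant and low-yield classes and both groups, beside 2307, 1452, 2304 and 3525 of all genes. Over all genes, calls ranged from 774 to 2000 in the group 2 mutant and from 1597 to 3399 in the low-yield mutant under the alternatives that kept all its libraries. With the longest annotated transcript as length, the level of Etfb in group 1 wildtype was 93.1 in place of 71.4 CPM per kilobase. Cpt1b, Cpt1c and Slc27a2 had too few reads for firm values.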
